A study of Mus musculus with 2 samples.

Results

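The 7 genes Runx1, Runx2, Runx3, Cbfb, Runx1t1, Cbfa2t2 and Cbfa2t3 encode the RUNX transcription factors, their partner CBF beta and the ETO corepressors. They were taken by symbol, and each matched 1 of the 43346 Ensembl genes of the deposited tables, or 1 of 21474 protein-coding genes. Total RNA of mouse hematopoietic stem cells, abbreviated HSC, was sequenced in 2 biological replicates of 1 group, from adult male C57BL/6J mice aged 5 to 6 weeks. No genetic change or treatment is named in the labels. Each library was made from 100 ng of RNA with a ScriptSeq kit after depletion of ribosomal RNA, and the replicates are separate biosamples under the same donor entry. Neither the sorting gate nor whether the cells came from different animals was given in the sources used here. A single group of 2 libraries allows no test of a difference. Values are therefore given for replicate 1 and then replicate 2, and a mean ± SD (n = 2) measures only the spread between these libraries, which may be technical.

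RUNX proteins bind DNA through the Runt domain and act as activators or repressors according to the partners they recruit. CBF beta does not bind DNA itself. It joins the Runt domain, raises its affinity for DNA and protects the RUNX protein from degradation. RUNX1 is required for the first HSC of the embryo, RUNX2 is best known for bone formation, and RUNX3 for T cell and natural killer cell development. The ETO proteins, also called MTG proteins, bind no DNA on their own and bring NCoR, SIN3 and histone deacetylases to transcription factors. In human acute myeloid leukaemia, RUNX1 is fused to the ETO protein RUNX1T1, and CBFB is fused to a myosin gene.

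Each RUNX gene has a distal promoter and a proximal promoter inside the gene, and their transcripts encode proteins with different first residues. In mouse, distal Runx1 transcripts are the form typical of definitive blood progenitors. The following sequences show how the products of the 2 promoters differ. They are the first coding bases of the distal and of the proximal coding transcript of highest level, up to where the 2 transcripts share sequence or, for the distal one, to the end of its first coding exon, read from the GENCODE M21 transcripts (GRCm38). Capitals mark bases identical in all 3 genes.

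Runx1 distal coding start, Runx1-201, chr16:92825589-92825646, minus strand: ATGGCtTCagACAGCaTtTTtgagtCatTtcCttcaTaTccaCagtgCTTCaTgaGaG
Runx2 distal coding start, Runx2-202, chr17:44814169-44814226, minus strand: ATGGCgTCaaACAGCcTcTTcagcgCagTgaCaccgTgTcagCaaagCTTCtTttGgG
Runx3 distal coding start, Runx3-201, chr4:135121106-135121163, plus strand: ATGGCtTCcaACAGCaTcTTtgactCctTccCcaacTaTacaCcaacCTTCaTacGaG
Runx1 proximal coding start, Runx1-202, chr16:92695738-92695753, minus strand: ATGCGTATcCCcGTAG
Runx2 proximal coding start, Runx2-203, chr17:44735619-44735634, minus strand: ATGCGTATtCCtGTAG
Runx3 proximal coding start, Runx3-202, chr4:135152772-135152787, plus strand: ATGCGTATtCCcGTAG

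The distal stretch was 58 bases long in each of the 3 genes, and 28 of the 58 bases were identical in all of them. Runx1 and Runx3 were the most alike there, with 41 of 58 identical bases, against 34 for Runx1 and Runx2 and 33 for Runx2 and Runx3. The proximal stretch was 16 bases long in each gene, with 14 identical in all 3. The proximal start lay 128821 bases downstream of the distal start in Runx1, 78149 bases in Runx2 and 31844 bases in Runx3.

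The promoters themselves are shown because the shares of RNA assigned to distal and proximal transcripts are the main result on the RUNX genes. The lines hold the 250 bases before the RefSeq start of each (RefSeq, GRCm38.p6), written 5′ to 3′ on the gene's strand, with capitals for the RUNX motif TGTGGT or its reverse complement ACCACA. In Runx1 and Runx2 distal and Runx3 proximal windows, the GENCODE M21 start lies further upstream, inside the window.

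Runx1 distal window, chr16:92826075-92826324, minus strand: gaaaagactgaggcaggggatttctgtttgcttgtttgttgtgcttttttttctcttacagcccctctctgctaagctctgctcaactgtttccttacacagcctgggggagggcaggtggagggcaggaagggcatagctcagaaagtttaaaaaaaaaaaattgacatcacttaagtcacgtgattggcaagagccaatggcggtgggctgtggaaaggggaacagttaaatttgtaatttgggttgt
Runx1 proximal window, chr16:92697330-92697579, minus strand: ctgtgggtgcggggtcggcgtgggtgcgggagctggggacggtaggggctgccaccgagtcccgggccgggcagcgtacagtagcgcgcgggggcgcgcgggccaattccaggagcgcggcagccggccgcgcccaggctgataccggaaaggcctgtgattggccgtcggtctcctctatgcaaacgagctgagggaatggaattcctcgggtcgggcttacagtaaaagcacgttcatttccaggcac
Runx2 distal window, chr17:44814628-44814877, minus strand: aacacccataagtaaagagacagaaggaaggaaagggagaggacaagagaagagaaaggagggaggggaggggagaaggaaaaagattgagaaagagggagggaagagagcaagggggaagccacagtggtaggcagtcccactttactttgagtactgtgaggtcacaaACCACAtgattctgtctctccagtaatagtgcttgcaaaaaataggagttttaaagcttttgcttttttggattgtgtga
Runx3 distal window, chr4:135120395-135120644, plus strand: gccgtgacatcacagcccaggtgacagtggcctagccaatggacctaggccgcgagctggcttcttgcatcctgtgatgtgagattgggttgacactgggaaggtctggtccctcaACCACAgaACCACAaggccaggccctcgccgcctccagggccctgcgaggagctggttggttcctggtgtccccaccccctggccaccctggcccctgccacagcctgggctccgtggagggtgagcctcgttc
Runx3 proximal window, chr4:135152295-135152544, plus strand: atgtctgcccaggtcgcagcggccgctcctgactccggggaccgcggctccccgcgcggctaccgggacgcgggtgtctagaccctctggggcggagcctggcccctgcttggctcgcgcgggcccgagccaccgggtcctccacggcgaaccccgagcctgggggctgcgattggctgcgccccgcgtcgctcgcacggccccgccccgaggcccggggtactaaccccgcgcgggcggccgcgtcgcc

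The RUNX motif was found in the Runx2 distal window once and in the Runx3 distal window 2 times, close together. The remaining ones of the 9 windows, which belong to 6 of the 7 genes, had no match. Only TGTGGT and ACCACA were searched, and no other form of the motif. Runx1t1 and the proximal promoter of Runx2 were not searched here. Across all 32851 RefSeq windows of this length, 14.0% held the motif on either strand. A match of 6 letters is a description of the sequence and not a bound site. Both windows were at hand for Runx1 and Runx3, and CpG content differed between them: the Runx1 distal window had 2 CpG and the Runx3 distal window 8, whereas the Runx1 proximal window had 27 and the Runx3 proximal window 38. The Runx2 distal window had 0 CpG. The median of all windows was 6. Of the 9 windows, the E-box CANNTG stood in 5, the ETS motif CCGGAA in 2, and the GATA motif AGATAA and TATAAA in none. In that order, the 4 motifs, searched on both strands, stood in 66.2%, 12.03%, 9.99% and 12.4% of all windows. The E-box of the Runx2 distal window overlapped its RUNX motif.

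The libraries held 27901074 estimated counts in replicate 1 and 48490188 in replicate 2. Their labelled size ranges were 172 to 1452 nucleotides in replicate 1 and 232 to 1000 in replicate 2. Levels are in TPM, which divides counts by transcript length and scales each library to the same sum, with the interval deposited beside each. Protein-coding genes held 16.3% and 20.3% of TPM but 81.5% and 86.6% of counts, and the median log2 ratio of replicate 1 over replicate 2 was -0.27 over 11018 genes with a mean of at least 1 TPM. Of 12 genes listed as HSC markers, 11 reached 1 TPM in both libraries, though not all of the 12 are specific to HSC. Among the 11 were Cd34 at 145 and 166 TPM and Flt3, a receptor of multipotent progenitors, at 57.9 and 53.2 TPM. Slamf1, a marker used to sort long-term HSC, had 0.42 and 0.43 TPM. Neutrophil markers were also present, 9 of 9 with a summed 3044 and 1140 TPM. Erythroid markers summed to 118 and 244 TPM, with 6 of 10 at 1 TPM or more in both. Of monocyte markers, 4 of 6 reached that level, with sums of 368 and 171 TPM. Of lymphoid markers, Pax5, Trac and Cd8a had 0 counts in both libraries, and 4 of 9 T cell markers, 1 of 7 B cell markers and 1 of 6 natural killer markers reached 1 TPM in both. Fewer cells of a type and less RNA per cell cannot be told apart in such bulk samples. The part of these markers in the values of the 7 genes was not tested.

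By level, Cbfb stood highest, the 3 Runx genes and 2 of the ETO genes lay in the middle, and Runx1t1 stood lowest. A gene was called detected at 1 TPM or more in both libraries, which 6 of the 7 genes were and 44.0% of protein-coding genes were.

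Runx1 (ENSMUSG00000022952, chr16:92601466-92826149, minus strand), the master regulator of definitive blood formation, had 10.8 TPM (interval 10.2 to 11.3) from 3835 counts in replicate 1 and 9.64 TPM (9.36 to 9.98) from 5710 counts in replicate 2. It was the highest of the 3 RUNX genes in both libraries, with 46.0% and 47.6% of their summed TPM. Runx2 (ENSMUSG00000039153, chr17:44495987-44814797, minus strand), known for bone, had 7.71 TPM (6.85 to 8.65) from 2152 counts and 7.96 TPM (7.44 to 8.67) from 4131 counts. Runx2 was thus close to Runx1, at a mean of 7.84 ± 0.18 TPM against 10.2 ± 0.79 TPM for Runx1 (SD, n = 2 each). Runx3 (ENSMUSG00000070691, chr4:135120652-135177990, plus strand) had 4.92 TPM (4.15 to 6.47) from 672 counts and 2.64 TPM (2.40 to 3.83) from 861 counts. Runx3 was the lowest RUNX gene in both libraries and the one whose libraries lay furthest apart in proportion.

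Cbfb (ENSMUSG00000031885, chr8:105170674-105217989, plus strand), the common partner, had 33.4 TPM (32.2 to 33.9) from 7464 counts in replicate 1 and 48.9 TPM (47.7 to 49.6) from 15679 counts in replicate 2. It was the highest of the 7 genes in both libraries, above 97.1% of protein-coding genes by mean TPM. The 3 Runx genes together had 23.4 and 20.2 TPM, so Cbfb exceeded their sum 1.43-fold in replicate 1 and 2.41-fold in replicate 2. The log2 ratio of Cbfb over the summed Runx genes was 0.89 ± 0.53 (SD, n = 2), positive in 2 of 2 libraries. It was 1.55 ± 0.21 over transcripts annotated with a complete coding sequence, and 0.36 ± 0.27 by counts per library size without division by length.

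Among the ETO corepressors, Cbfa2t2 (ENSMUSG00000038533, chr2:154436481-154539356, plus strand; MTGR1 protein) had 4.05 TPM (3.86 to 5.09) from 1437 counts in replicate 1 and 5.40 TPM (5.03 to 6.06) from 2668 counts in replicate 2. Cbfa2t3 (ENSMUSG00000006362, chr8:122625141-122699109, minus strand; MTG16 protein), which in mouse is needed to keep HSC quiescent and self-renewing, had 3.46 TPM (2.95 to 4.31) from 707 counts and 4.29 TPM (3.35 to 5.42) from 1388 counts. Both sat near Runx3. Runx1t1 (ENSMUSG00000006586, chr4:13743436-13893649, plus strand), the gene of the leukaemia fusion, had 0.28 TPM (0.24 to 0.47) from 93 counts and 0.06 TPM (0.054 to 0.21) from 42 counts. It was below 1 TPM in both libraries and the only 1 of the 7 genes not detected by that rule. Runx1t1 made up 3.59% and 0.615% of the summed ETO level. The summed ETO genes were below the summed Runx genes in both libraries, where the log2 ratio came to -1.57 for replicate 1 and -1.05 for replicate 2 (mean -1.31 ± 0.37).

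Of the 21 gene pairs, 18 were ordered, meaning that the same gene was higher in each library and that its deposited interval lay clear of the other gene's in each. The order ran from Cbfb to Runx1, then Runx2, then Runx3, Cbfa2t2 and Cbfa2t3 without an order among themselves, and last Runx1t1. Cbfa2t2 and Runx3 changed places between the libraries, since the log2 ratio was -0.27 in replicate 1 but 1.01 in replicate 2. Cbfa2t3 and Runx3 did so as well, at -0.50 and 0.68. Over complete coding transcripts, Cbfa2t2 was above Runx3 in both libraries (0.45 and 0.40), while Cbfa2t3 and Runx3 were at -0.03 and 0.67. By CPM, counts per library size without division by length, all 21 pairs had the same direction in both libraries. By TPM, Cbfa2t2 was above Cbfa2t3 in both libraries, but with overlapping intervals. Over complete coding transcripts, the log2 ratio of Cbfa2t2 over Cbfa2t3 was 0.47 in replicate 1 and -0.27 in replicate 2. The closest ordered pair was Runx1 over Runx2, with log2 ratios of 0.48 (replicate 1) and 0.27 (replicate 2).

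**Figure D1:**
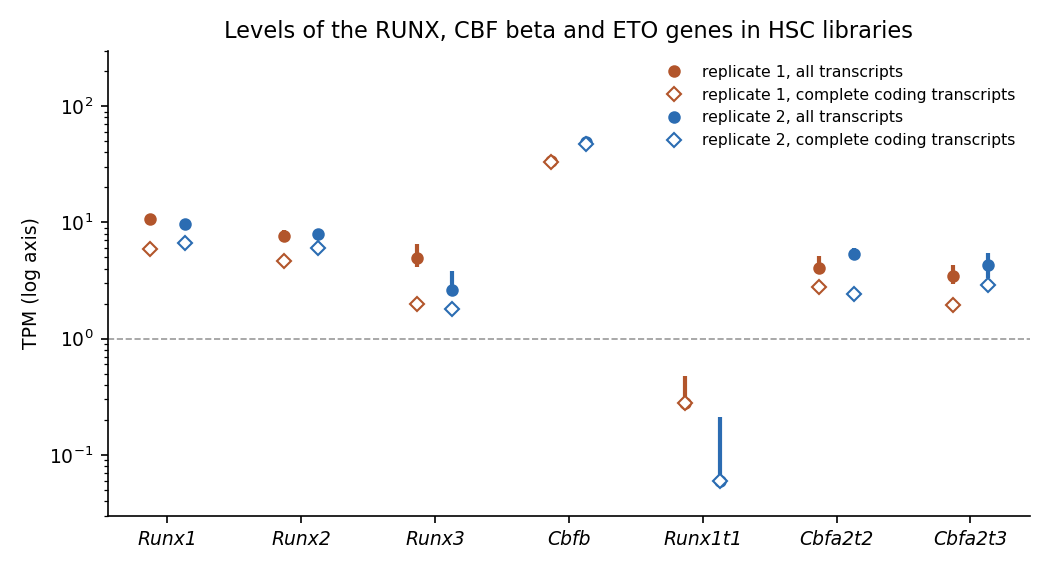
Level of each gene in TPM on a log axis, replicate 1 left of replicate 2. Filled circles are all transcripts with the deposited interval as a bar, open diamonds are transcripts with a complete coding sequence, and the dashed line marks 1 TPM. Cbfb stands highest, Runx1t1 is the only gene below the line, and in Runx3 the diamonds of the libraries lie at 2.00 and 1.80 TPM while the circles lie at 4.92 and 2.64 TPM.

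Transcripts without a complete coding sequence took a larger share of the Runx genes by TPM than by counts. Complete coding transcripts held 54.6% and 68.7% of Runx1 TPM, 61.0% and 75.1% of Runx2 TPM and 40.7% and 68.2% of Runx3 TPM. By counts, which do not divide by length, the shares were 73.8% and 82.7% for Runx1, 95.4% and 98.3% for Runx2 and 94.8% and 98.5% for Runx3. The median TPM share over 7079 detected protein-coding genes with 2 or more transcripts was 82.1% and 85.7%. Cbfb was above that median, at 99.7% and 95.9%. Cbfa2t2 had 68.1% and 44.6% of TPM, and Cbfa2t3 had 56.6% and 68.1% of TPM but 91.9% and 97.8% of counts. By complete coding transcripts the levels were 5.87 and 6.62 TPM for Runx1, 4.70 and 5.98 TPM for Runx2, 2.00 and 1.80 TPM for Runx3 and 33.4 and 46.9 TPM for Cbfb.

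Annotated transcript starts were grouped along each gene by chaining starts within 500 bases of each other, and the group furthest 5′ is called distal. The shares rest on how counts were divided among annotated transcripts, and the 5′ ends of the RNA were not measured. Most Runx1 RNA was assigned to the distal group, with 83.4% of TPM in replicate 1 and 87.1% in replicate 2. The share was 87.3% and 88.4% by counts, and 92.8% and 89.3% over complete coding transcripts. Runx1-201, the distal transcript of 465 codons, had 5.45 TPM (5.15 to 5.56) from 2667 counts and 5.91 TPM (5.68 to 6.04) from 4309 counts. It was the top Runx1 transcript of both libraries. The proximal coding transcript Runx1-202, with 387 codons, had 0.42 and 0.71 TPM. It lacks exon 6 of the distal transcript, the 192 bases at chr16:92644154-92644345. Runx1-203, which starts downstream of Runx1-202 and has 451 codons in 1985 nucleotides, had 0 counts in both libraries. Whether part of the RNA assigned to Runx1-201 began at the proximal promoter was not tested. A second distal transcript, Runx1-207, made up 31.1% and 25.7% of the gene with 3.34 and 2.48 TPM from 677 and 738 counts. It has no coding sequence and ends at position 92815428 of chromosome 16, upstream of the proximal start. The other proximal transcript with counts, Runx1-206, retains an intron and had 1.01 and 0.53 TPM.

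Runx2 differed in that no start group held nearly all of the gene. The distal group had 43.1% and 50.7% of TPM, the proximal group 20.1% and 25.1%, and a further group, made of Runx2-205 alone, 36.8% and 24.2%. Runx2-205 is an incomplete coding transcript of 440 nucleotides, and its 2.84 and 1.93 TPM rested on 61 and 50 counts, or 2.83% and 1.21% of the gene's counts. By counts the distal share of Runx2 was 76.0% and 71.8%, and over complete coding transcripts 70.6% and 67.6%. The distal transcript Runx2-202, of 528 codons, had 3.32 TPM (2.97 to 3.52) and 4.04 TPM (3.76 to 4.26), with intervals that did not overlap. At gene level this held for 70.7% of genes with a mean of at least 1 TPM. Proximal Runx2-203, of 514 codons, had 0.60 and 1.05 TPM, and proximal Runx2-210, of 492 codons, 0.78 and 0.36 TPM. The proximal group held a larger share of Runx2 than of Runx1 in both libraries, at 21.2% and 27.0% of counts against 12.5% and 11.6% for Runx1.

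Runx3 RNA with a complete coding sequence was assigned almost wholly to the distal group. Runx3-201, of 423 codons, had 2.00 TPM (1.80 to 2.11) from 637 counts and 1.79 TPM (1.66 to 1.90) from 846 counts, which was 94.8% and 98.2% of the gene's counts. The proximal coding transcript Runx3-202 had 0 counts in replicate 1 and 2.44 in replicate 2. Its annotation ends at position 135176181 of chromosome 4, before the end of Runx3-201 at 135177990. Whether part of the RNA assigned to Runx3-201 began at the proximal promoter was not tested. By TPM the distal share was only 40.7% and 67.8%, since the noncoding Runx3-203 of 353 nucleotides had 2.27 and 0.84 TPM from 32 and 13 counts. Runx3-204, a noncoding transcript of 227 nucleotides, added 0.65 TPM from 3 counts in replicate 1 and 0 in replicate 2. Most of the TPM difference of Runx3 between the libraries lay in these short transcripts: complete coding Runx3 was 2.00 and 1.80 TPM, a ratio of 1.11, whereas the others were 2.92 and 0.84 TPM. Against the median of all genes, complete coding Runx3 was still 0.45 higher on the log2 scale in replicate 1, and Runx3 counts scaled by TMM were 0.46 higher. The mean fragment length was 193 nucleotides in replicate 1 and 245 in replicate 2, and short transcripts are the ones whose effective length depends on it most. Its part in the difference was not tested.

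**Figure D2:**
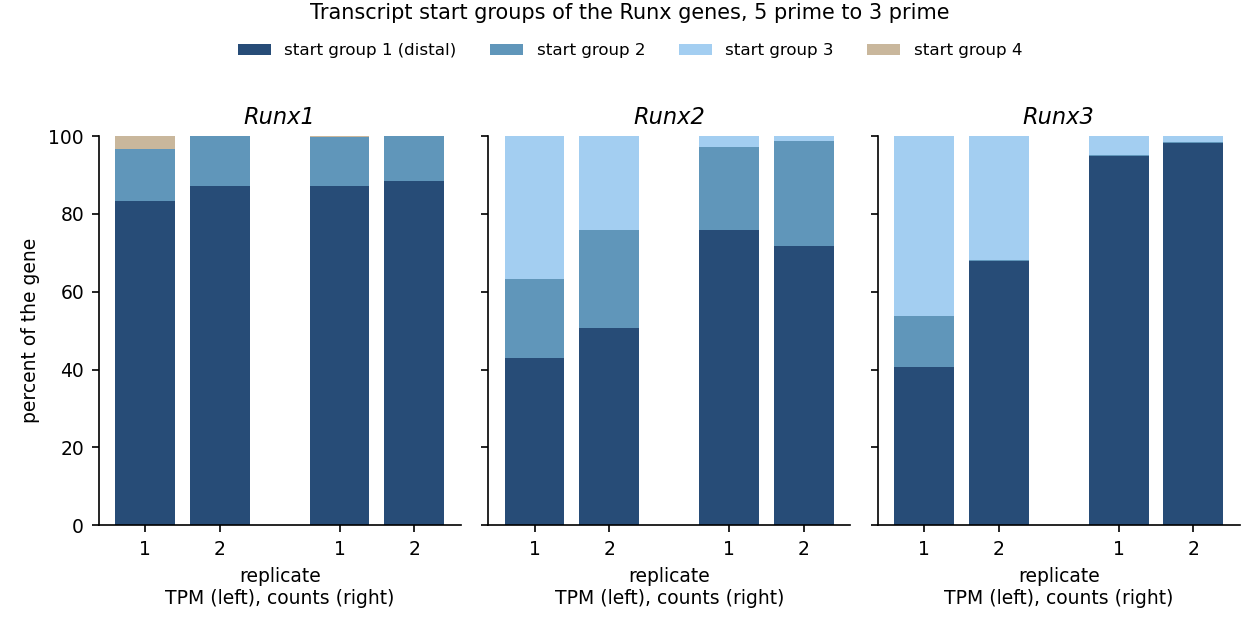
Percent of each Runx gene in its transcript start groups, ordered from the 5′ end, by TPM in the 2 left bars and by counts in the 2 right bars of each panel, replicate 1 left of replicate 2. The distal group holds over 83% of Runx1 on both scales, while in Runx2 and Runx3 it gains from TPM to counts, because the last group is a short transcript with few counts.

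Several genes overlap the Runx and ETO genes. The antisense genes Runx2os1 and Runx2os2 had 8 and 10 counts and 5 and 0 counts, and Runx2os3, Gm26626 (opposite Runx1) and Gm16224 (opposite Runx3) had 0 in both libraries. Supt3, a protein-coding gene opposite Runx2, had 444 and 595 counts. Opposite Cbfa2t3, the long protein-coding gene Gm20388 had 1769 and 1855 counts and Gm10612 had 17 and 0. The pseudogene Cbfa2t2-ps1 had 7.27 and 1.97 counts. Whether the counting used strand was not given in the sources used here, so reads of a gene and of its opposite partner may not have been told apart.

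All Cbfb transcripts started in 1 group, and what varied was splicing. The exons that differ were these (GENCODE M21, GRCm38). In the first, capitals mark the 31 bases by which Cbfb-202 extends exon 5 (127 bases) beyond that of Cbfb-201 (96 bases). The second, in lower case throughout, is the 117-base exon 3 that Cbfb-203 skips. The files give Cbfb-202 a length of 2836 nucleotides, against 2891 in GENCODE M21, so its model in the files was not identical to the one shown.

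Cbfb alternative exon end, Cbfb-202, chr8:105202452-105202578, plus strand: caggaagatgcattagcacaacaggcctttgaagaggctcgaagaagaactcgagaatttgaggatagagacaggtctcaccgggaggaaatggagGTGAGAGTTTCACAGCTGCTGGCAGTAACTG
Cbfb skipped exon, Cbfb-201, chr8:105178593-105178709, plus strand: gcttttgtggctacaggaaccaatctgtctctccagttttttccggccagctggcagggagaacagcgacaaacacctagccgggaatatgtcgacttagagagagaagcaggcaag

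Cbfb-202, whose extended exon gives a product of 182 codons, had 18.6 TPM (17.0 to 19.3) in replicate 1 and 16.9 TPM (15.5 to 17.9) in replicate 2. Cbfb-201, with the shorter exon and 187 codons, had 8.53 TPM (6.99 to 9.72) and 23.5 TPM (21.6 to 24.8). Cbfb-203, of 148 codons, had 6.24 and 6.56 TPM. The intervals of Cbfb-202 and of Cbfb-203 overlapped between the libraries, whereas those of Cbfb-201 did not, and the libraries differed in their leading form. At gene level the intervals of 70.7% of genes with a mean of at least 1 TPM did not overlap. Cbfb-202 made up 55.5% of the gene in replicate 1 and 34.5% in replicate 2, and Cbfb-201 25.5% and 48.0%. As counts were assigned, the higher Cbfb level of replicate 2 was in Cbfb-201 and not in Cbfb-202 or Cbfb-203. How counts were divided among the Cbfb forms was not tested. Cbfb-206, noncoding, had 0.09 and 1.78 TPM.

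Runx1t1 had 6 transcripts, and 2 of them had counts. Runx1t1-202, of 577 codons, had 51.8 counts in replicate 1 and 0 in replicate 2. Runx1t1-201, of 584 codons, had 41.3 and 42.0 counts. The 2 start at separate places, and all 42 counts of replicate 2 went to the distal form. Such low counts give the split between these forms little precision.

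Cbfa2t2 also differed between libraries in the make-up of its RNA. Cbfa2t2-201, the complete form of 594 codons, had 1.97 TPM (1.57 to 2.12) in replicate 1 and 1.13 TPM (0.23 to 1.25) in replicate 2. Cbfa2t2-206, a 5074-nucleotide transcript that starts inside the gene and has an incomplete coding sequence, had 0.49 TPM (0.23 to 0.78) and 2.00 TPM (1.72 to 2.23). Neither pair of intervals overlapped, and 206 was the top Cbfa2t2 transcript of replicate 2. At gene level the intervals of 70.7% of genes with a mean of at least 1 TPM did not overlap. The share over transcripts is not given here. Cbfa2t2-204, of 593 codons, is 6080 nucleotides long against 6069 for Cbfa2t2-201. It had 0 TPM in both libraries, with an interval up to 0.79 TPM in replicate 2. How counts were divided between 201 and 204 was not tested. Cbfa2t2-202, of 473 codons, had 0.79 and 1.28 TPM. The retained-intron transcript Cbfa2t2-208 had 0.78 and 0 TPM, and the incomplete Cbfa2t2-203 had 0.03 and 0.99 TPM. Complete coding Cbfa2t2 was 2.76 and 2.41 TPM, so replicate 2 was higher over all transcripts and replicate 1 over complete ones.

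Cbfa2t3 was led by the same distal transcript in both libraries. Cbfa2t3-203, of 620 codons, had 1.94 TPM (1.72 to 2.05) from 645 counts and 2.20 TPM (2.00 to 2.33) from 1085 counts. The files give it a length of 4047 nucleotides, against 7645 in GENCODE M21, and its TPM rests on the shorter one. Proximal Cbfa2t3-201, of 559 codons, had 0.02 TPM from 5 counts in replicate 1 and 0.72 TPM from 273 counts in replicate 2. The short Cbfa2t3-204 had 1.40 and 0 TPM from 54 and 0 counts, and Cbfa2t3-205 had 0 and 1.37 TPM from 0 and 30 counts. Each of these short forms had counts in 1 library only, but the intervals of Cbfa2t3-205 overlapped, up to 0.53 TPM in replicate 1 and from 0.28 TPM in replicate 2. The annotated span of Cbfa2t3-205 lies within that of Cbfa2t3-204. How far counts were exchanged between these forms was not tested.

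**Figure D3:**
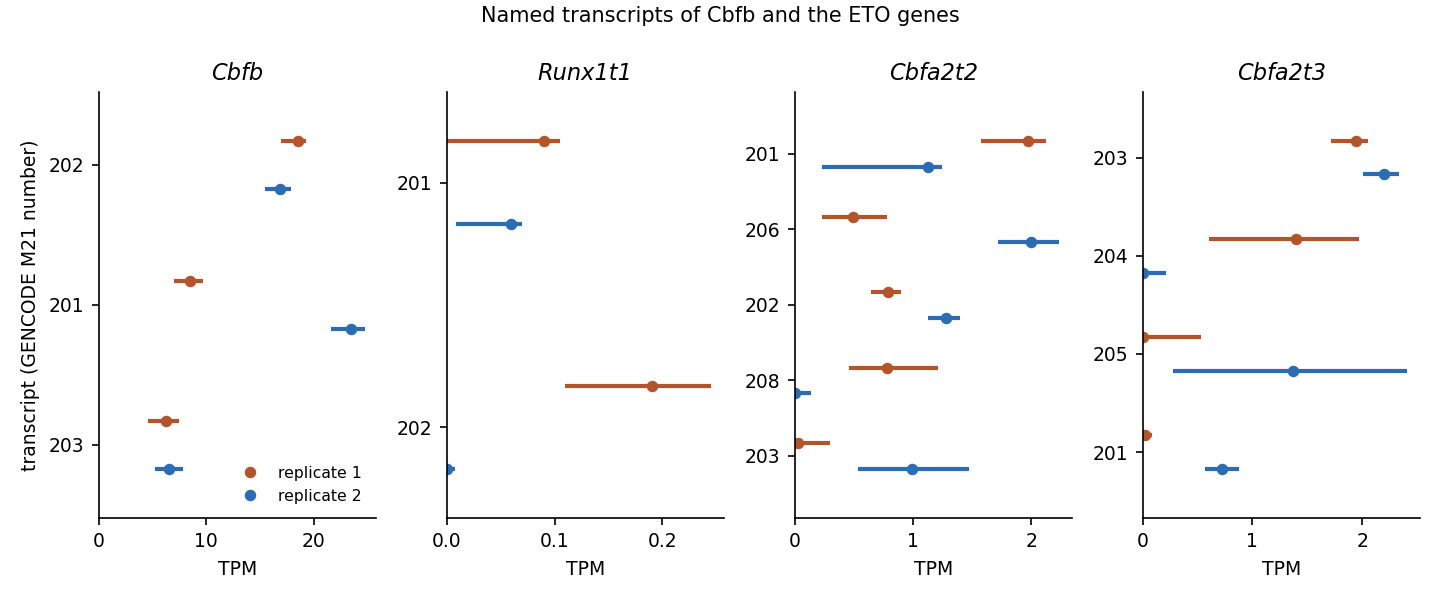
TPM of the transcripts of Cbfb and the ETO genes that made up at least 10% of their gene in 1 library, replicate 1 above replicate 2, with the deposited intervals as bars and numbers as in GENCODE M21. Cbfb-201 lies at 8.53 and 23.5 TPM while Cbfb-202 and Cbfb-203 overlap between libraries, and Cbfa2t2-201 and Cbfa2t2-206 lie apart in opposite directions.

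The top transcript was the same in both libraries for Runx1, Runx2 and Cbfa2t3, 3 of the 6 detected genes, beside 74.9% of 7267 detected genes with 2 or more transcripts. The 6 genes have 6 to 13 transcripts each, and the 7267 genes were not matched to them in transcript number. Runx3, Cbfb and Cbfa2t2 had different ones. By counts, Runx3 was led by Runx3-201 in both.

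At the level of the whole gene, none of the 6 detected genes was apart between replicates, meaning a difference over 2-fold with intervals that did not overlap. Of the 11018 genes with a mean of at least 1 TPM, 4.23% were apart with replicate 1 higher and 7.40% with replicate 2 higher, 11.6% in all. Runx3 was the closest of the 6, at a log2 ratio of replicate 1 over replicate 2 of 0.87, and 16.6% of tested genes differed more. Cbfb was at -0.55, Cbfa2t2 at -0.41, Cbfa2t3 at -0.30, Runx2 at -0.05 and Runx1 at 0.16. Runx1t1, below the level tested, was at 1.25. Other rules gave other counts: Runx3 was apart at a fold of 1.5, as were 31.6% of all tested genes, and Runx1, Runx3 and Cbfb by intervals alone, as were 70.7%. Without the filter on level, Runx1t1 was apart, among 16.8% of genes, and with TPM rescaled over protein-coding genes Runx1t1 and Runx3 were, among 17.6%. Relative to the median of all genes, Runx1, Runx3 and Runx1t1 were higher in replicate 1 and Cbfb and Cbfa2t3 lower under all 5 scalings tried. Runx2 was higher by both TPM scalings but lower by counts or complete coding transcripts, and Cbfa2t2 was lower except by complete coding transcripts.

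**Figure D4:**
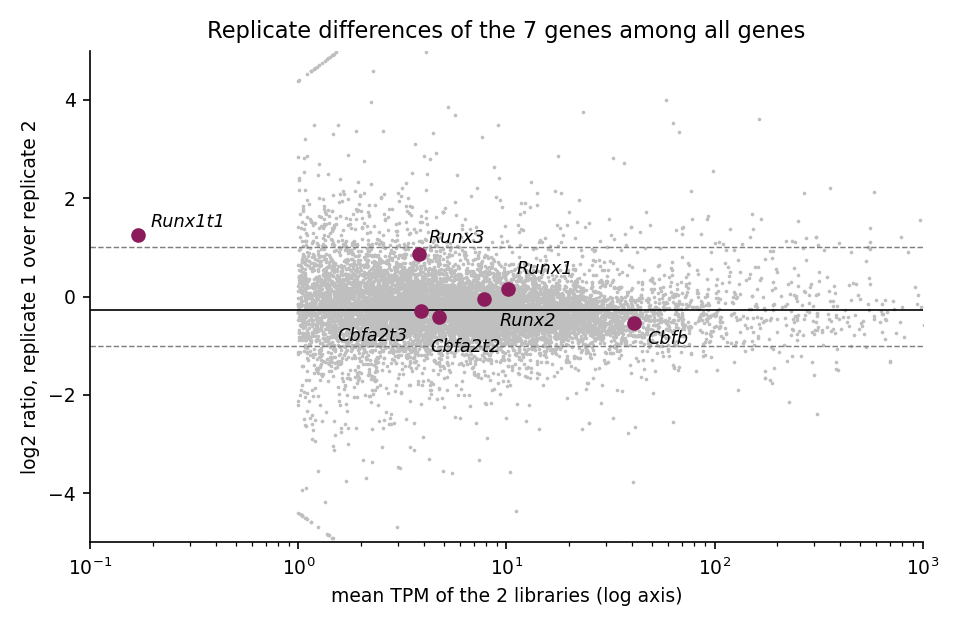
Log2 ratio of replicate 1 over replicate 2 against the mean TPM of the 2 libraries on a log axis. Grey points are 10802 genes with a mean of at least 1 TPM, leaving out 216 outside the axes, the solid line is the median of all tested genes (-0.27), the dashed lines are 2-fold differences and the large points are the 7 genes. The 6 detected genes lie inside the dashed lines and Runx1t1 lies outside at 1.25, at a mean of 0.17 TPM.

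All 18 genes listed as corepressors of RUNX proteins or partners of ETO proteins in repression were detected, beside 44.0% of protein-coding genes. Ncor1, the scaffold of the NCoR complex, led with 50.6 and 72.4 TPM, followed by the deacetylase Hdac2 with 29.2 and 42.6 TPM. Aes, a short Groucho-family protein, had 23.0 and 25.2 TPM, and the scaffold Sin3a had 21.6 and 24.7 TPM. The Groucho gene Tle2, with 1.91 and 2.30 TPM, was among the lowest. Of the 18, 3 were apart with replicate 2 higher, as were 7.40% of all tested genes: Tle1 with 2.72 and 7.89 TPM, Tle3 with 7.13 and 21.5 TPM, and the NCoR subunit Gps2 with 5.99 and 13.3 TPM. In that order, their counts were 416 and 1348, 1847 and 3336, and 504 and 1512, from libraries of 27901074 and 48490188 counts. The 3 differences were thus smaller by counts per library size than by TPM, and Tle3 was nearly level. The part of transcript length in them was not tested. The median log2 ratio of the 18 was -0.34, beside -0.27 for all tested genes.

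Coactivators and enzymes that modify RUNX proteins were detected in 14 of 17 cases, beside 44.0% of protein-coding genes. The cell-cycle kinases Cdk6, with 30.3 and 33.1 TPM, and Cdk1, with 25.1 and 26.5 TPM, led the list, and both are known to phosphorylate RUNX1. The kinase Hipk1 had 16.01 and 24.1 TPM and the ubiquitin ligase gene Stub1 9.50 and 12.2 TPM. Yap1, with 0.28 and 0.14 TPM, and Wwtr1, with 0.09 and 0.20 TPM, Hippo pathway cofactors that bind RUNX2, were the lowest. None of the 14 tested genes was apart, beside 11.6% of all tested genes, and their median log2 ratio was -0.11.

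Of 15 transcription factors known to share binding sites with RUNX1 in blood progenitors, 14 were detected, beside 44.0% of protein-coding genes. Lmo2, a bridging protein of the TAL1 complex, had 130 and 176 TPM. Myb had 60.8 and 93.7 TPM, Meis1 42.7 and 52.1 TPM and the ETS factor Erg 40.1 and 55.7 TPM. All 4 were above Runx1 itself in both libraries. The lowest were Cebpa, with 1.53 and 1.78 TPM, and Gata3, with 0.51 and 1.14 TPM. Gata1, the erythroid factor, was apart with replicate 2 higher, at 1.40 and 3.90 TPM, as were 7.40% of all tested genes. Summed erythroid markers, which include Gata1, were 118 and 244 TPM. The part of erythroid RNA in the Gata1 difference was not tested. The median log2 ratio of the 14 tested genes was -0.44.

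The E proteins and zinc finger proteins that recruit ETO proteins were detected in 9 of 10 cases, beside 44.0% of protein-coding genes. The 3 E protein genes stood close together: Tcf4 had 11.6 and 14.7 TPM, Tcf12 10.9 and 14.4 TPM and Tcf3 8.85 and 10.8 TPM. Zbtb38 had 10.03 and 10.33 TPM. Bcl6 had 1.15 and 1.09 TPM and Zbtb16, also called PLZF, 0.60 and 0.67 TPM. None of the 9 tested genes was apart, beside 11.6% of all tested genes, and their median log2 ratio was -0.27.

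Genes known as RUNX1 targets in blood were detected in 19 of 29 cases, beside 44.0% of protein-coding genes. Cd34 had 145 and 166 TPM, the myeloid granule gene Mpo 92.2 and 58.9 TPM, the stem cell factor receptor Kit 36.4 and 45.1 TPM and Nfe2 32.0 and 49.8 TPM. The cytokine genes Csf2 and Il3 had 0 counts in both libraries, which allows levels up to 3 counts, or 0.108 CPM for replicate 1 and 0.0619 CPM for replicate 2 (counting error only). Of the 22 targets with a mean of at least 1 TPM, 3 were apart with replicate 1 higher, as were 4.23% of all tested genes: Elane with 25.8 and 9.29 TPM, Csf1r with 1.58 and 0.61 TPM, and Hmga2 with 1.74 and 0.69 TPM. Elane is also a neutrophil marker and Csf1r a monocyte marker, and those marker lists summed to 3044 and 1140 TPM and to 368 and 171 TPM. Their part in the difference was not tested. The median log2 ratio over the 22 tested targets was -0.11.

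The bone genes that RUNX2 controls in osteoblasts were mostly below 1 TPM. Of 12, 1 was detected, Spp1, with 1.74 and 1.70 TPM, beside 44.0% of protein-coding genes. Bglap, Bglap2, Alpl, Sp7 and Mmp13 had 0 counts in both libraries. Ibsp had 0.17 and 0.01 TPM, Tnfrsf11b 0.04 and 0.25 TPM and Col1a2 0.08 and 0.07 TPM. Of the RUNX3 targets of lymphocytes, 2 of 12 were detected, Zbtb7b with 1.39 and 2.03 TPM and Cd4 with 1.61 and 1.19 TPM. Both are also on the RUNX1 list. The target lists do not separate genes that RUNX proteins activate from genes that they repress. Il2rb had 0.58 and 0.66 TPM and Ifng 0.26 and 0.30 TPM. Cd8a and Cd8b1, which RUNX3 activates in cytotoxic T cells, had 0 counts in both libraries.

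**Figure D5:**
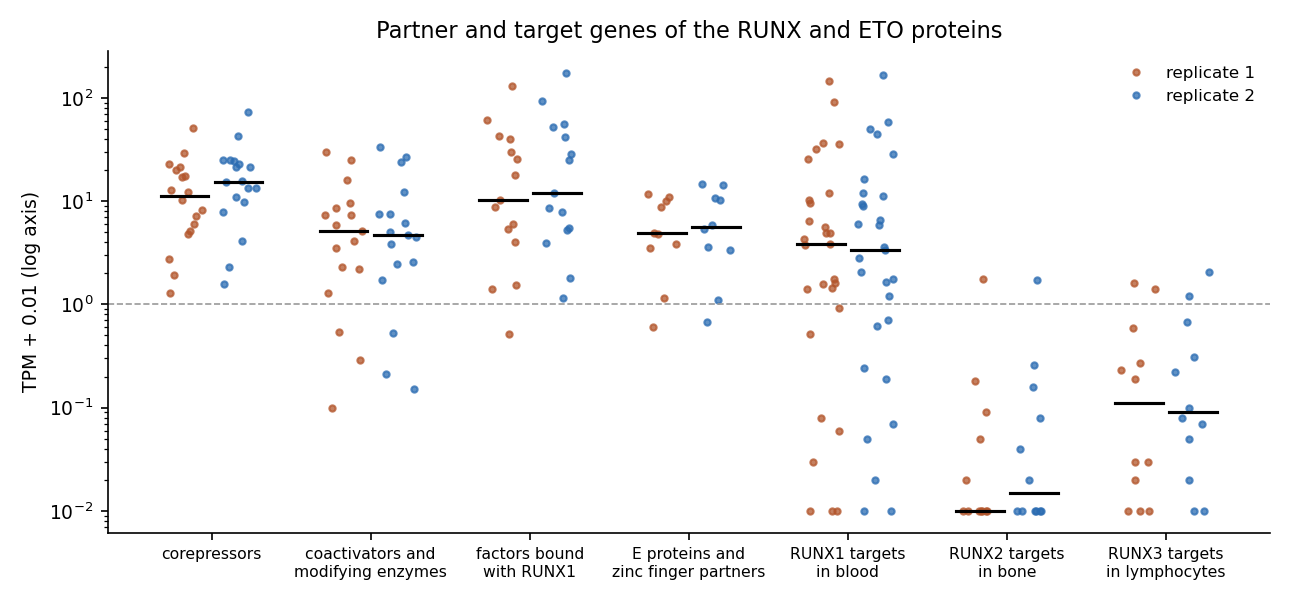
TPM (0.01 added, log axis) of the partner and target genes of the RUNX and ETO proteins by list, replicate 1 left of replicate 2, with black lines for medians and the dashed line at 1 TPM. All 18 corepressors lie above the dashed line, against 1 of 12 RUNX2 targets in bone and 2 of 12 RUNX3 targets in lymphocytes that do so in both libraries.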

How the data were processed

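The deposited gene and transcript tables of both libraries were used. Per the file headers, they hold expected counts, which can be fractional, with TPM, FPKM and posterior means of these. The deposited bounds of TPM intervals and the spread of each count were treated as a score, and IsoPct is the authors' percent of gene TPM per transcript. The authors' TPM adds up to the same total in each library, over 69691 features. Sample text files among the deposited data name mm10 and GENCODE M4. Which aligner and counter made the counts was not given in the sources used here. Names, positions and classes came from GENCODE M21 by identifier without version (42462 of 43346 genes), and all 55 transcripts of the 7 genes matched, 52 with equal length. Complete coding transcripts are protein-coding ones without an annotated incomplete end.

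Ratios used a pseudocount of 0.1 TPM. Named transcripts held at least 10% of their gene in 1 library, and named partners and targets were the 4 highest, the 2 lowest and those apart, of which 1 gene is not reported here. Prmt1 and Tcrb were not matched by symbol. Library scaling used edgeR 4.0.16 (TMM) and DESeq2 1.42.0 size factors on rounded counts in R 4.3.3, and tables used Python 3.11.15. The smallest p of an exact sign-flip permutation with 2 replicates is 0.5, so no test was made. The rule for replicates lying apart was checked on simulated gene counts with 1 length per gene and intervals computed from the counts. That check does not cover differences from the division of counts among transcripts, from fragment length or from the deposited bounds. The genes, lists and rules were chosen with earlier results of these data known. Intervals cover estimation from reads only. No per-sample column was left unmapped.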

Additional observations from a re-analysis of the deposited data

How the results depend on the processing

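Across 66 alternative values of 9 results, 54 stayed within the limits set (1.5 times for a count, 1 SD for a value), 12 moved beyond them and 0 turned round. This tally is no measure of robustness. For ratios and shares, the value of either library alone lies within 1 SD of the mean of 2 libraries by construction. Counts and percent shares have no sign that could turn round. Within the limits, 7 genes were detected at 10 or more counts (Runx1t1 included). Ordered pairs numbered 16 when over 1.5-fold, 17 for complete coding transcripts over 1.5-fold and 21 by CPM, and shared top transcripts 4 by counts or among protein-coding transcripts. The number of genes apart between replicates was 0, but 1 (Runx3) at a fold of 1.5, 3 (Runx1, Runx3, Cbfb) with intervals alone, 1 (Runx1t1) without the level filter and 2 (Runx1t1, Runx3) with TPM rescaled over protein-coding genes. The same settings put 31.6%, 70.7%, 16.8% and 17.6% of all tested genes apart. Restricting to complete coding transcripts, an alternative added after seeing the data, gave 1.55 for the log2 ratio of Cbfb over the summed Runx genes. The same restriction gave distal shares of 91.1% for Runx1, 69.1% for Runx2 and 99.7% for Runx3. Protein-coding transcripts of any kind gave 88.6% for Runx1 and 99.7% for Runx3, and counts gave 73.9% for Runx2 and 96.5% for Runx3. Distal shares of Runx2 and Runx3 by TPM depended on transcripts with 0 to 61 counts in a library, where depth limits the estimate. With either library alone, ordered pairs were 18 to 19 and the Runx3 distal share 40.7% to 67.8%. No paired analysis was possible because the labels give 1 group.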
